A study of Arabidopsis thaliana with 2 samples.

Results

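MIR172D, MIR319A, MIR169C and MIR866A are the 4 microRNA genes that a list of LEAFY (LFY) binding peaks in Arabidopsis thaliana names as nearest promoter, out of 512 genes named in all. They were chosen by the peak calls themselves, through the authors' assignment of a peak to each, so having a peak is not a result for these genes, and their scores, from the same peak calling, are given as descriptions. Each gene had 1 peak, which makes 4 of the 529 peaks in the list. Both libraries came from inflorescence tissue of ap1 cal1 plants, mutants of the closely related floral MADS-box genes APETALA1 and CAULIFLOWER, that carried LFY fused to the hormone-binding domain of the glucocorticoid receptor under the constitutive 35S promoter. The plants were grown for 4 weeks, treated with 10 µM dexamethasone, which lets such fusion proteins enter the nucleus, and harvested 4 h afterwards. The first library was chromatin precipitated with rabbit serum raised against LFY, and the second was the input chromatin, with no antibody. There was 1 library of each kind and no library without dexamethasone, so the spread between libraries is not known for any value and no peak can be tied to the hormone treatment. The serum can also bind native LFY, and the 35S promoter drives the fusion in cells that do not normally make LFY. No read counts were used here, so the depth behind each peak is unknown.

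MicroRNAs are short RNAs cut from a hairpin in a longer primary transcript, and in plants they guide the cleavage or translational repression of messenger RNAs with a closely matching site. Several families are copied across the genome, so that many loci make the same or nearly the same microRNA. LFY is the transcription factor that turns a new lateral meristem into a flower. miR172 represses APETALA2 (AP2) and its relatives, which delay flowering and pattern the flower. miR319 represses a group of TCP genes that limit cell proliferation in leaves and petals, and miR169 represses genes for the NF-YA subunit of the CCAAT-binding factor NF-Y. No role is given here for miR866.

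The peak at MIR172D (AT3G55512) lay on chromosome 3 from 20588023 to 20589092 (TAIR10) and had a score of 684.8. The score was taken as the value that the authors' peak caller gave each peak. Its scale is not stated, and a higher score was taken to mean a stronger call. The score of the MIR172D peak ranked 34 of 529, was the highest of the 4 and stood between scores of 685.4 and 675.2 at the ranks just above and just below. The peak was centred 653 bp downstream of the annotated transcription start site (TSS) of MIR172D, and its nearer edge was 118 bp past that site, so the peak did not reach the TSS. The authors' annotation placed it at the transcription termination site (TTS) of MIR172D itself. Among the 75 peaks of the TTS class it ranked 4 by score. In 40 of these 75 peaks the termination site and the nearest promoter belonged to the same locus, and in those the centre lay 286 to 3450 bp downstream of the TSS, with a median of 1767 bp. Of these 40, 4 peaks were centred closer to their TSS than the MIR172D peak. The length of the genes was not taken into account in this comparison.

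The peak at MIR319A (AT4G23713, also known as JAW) lay on chromosome 4 from 12351798 to 12352991 (TAIR10), with a score of 585.6 and rank 51 of 529. It was annotated in the promoter of MIR319A and centred 562 bp upstream of the TSS. The peak ran from 1159 bp upstream to 35 bp downstream and so covered the TSS at its edge. Its score was rank 18 among the 214 promoter peaks, whose median score was 122.

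The peak at MIR169C (AT5G39635) lay on chromosome 5 from 15870733 to 15872474 (TAIR10), with a score of 440.2 and rank 83 of 529. It was a promoter peak as well, centred 603 bp upstream of the TSS and reaching from 1474 bp upstream to 268 bp downstream. It ranked 29 by score among the 214 promoter peaks. In the 185 promoter peaks whose annotated locus was also the nearest promoter, centres ranged from 995 bp upstream to 293 bp downstream. The limits of the class place most of this range upstream. The upstream place of both microRNA promoter peaks is therefore no result.

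The peak at MIR866A (AT5G40384) lay on chromosome 5 from 16158584 to 16159627 (TAIR10) and had the lowest score of the 4, 212.7, at rank 180 of 529. It was intergenic and centred 1157 bp upstream of the TSS, and its nearer edge stayed 635 bp away from that site. Intergenic peaks were centred at a median of 2154 bp from the nearest TSS, and 10 of the 121 were centred closer than the MIR866A peak. The closest intergenic peak was centred 1002 bp upstream, and nearer upstream peaks fall in the promoter class. This limits how many intergenic peaks can be closer. By score the MIR866A peak ranked 55 among the 121, near the middle of the class.

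**Figure D1:**
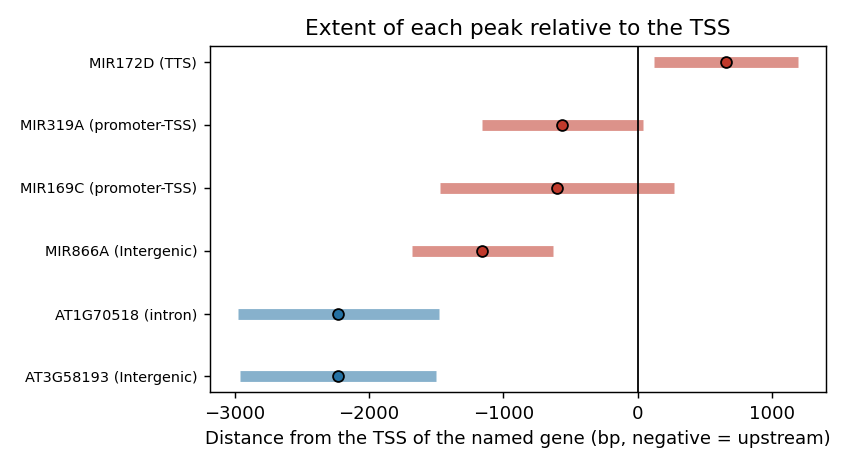
Extent of the peaks assigned to the 4 microRNA genes (red) and to the other 2 loci of Gene Type ncRNA or miscRNA (blue). The horizontal axis is the distance from the TSS of the named gene in bp, with negative values upstream; bars span the peak, circles mark its centre, and the annotation class is in brackets. The MIR319A and MIR169C peaks cross the TSS, the MIR172D peak lies 118 to 1188 bp downstream, and the MIR866A peak lies 635 to 1679 bp upstream.

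The 4 peaks thus fell in 3 annotation classes: 2 promoter, 1 TTS and 1 intergenic. On the upstream side the promoter and intergenic classes are split by distance. Promoter peaks of their own nearest locus were centred up to 995 bp upstream, and the MIR866A peak, at 1157 bp, lay past that. Its label alone does not make it a different kind of site. Of the 4, 3 were centred upstream of the TSS, beside 302 of all 529 peaks (57.1%). Within 1 kb of the TSS were 3 of the 4 centres, beside 299 of all peaks (56.5%). The TSS lay inside the peak at 2 of the 4 genes, beside 241 of all peaks (45.6%). The 4 centres were at a median of 628 bp from the TSS, against 850 bp for the other 525 peaks, and with 4 values this difference was not tested. In 3 of the 4 peaks the annotated locus was the microRNA gene itself, and the fourth, at MIR866A, was given no locus. Over the whole list the annotation named a locus for 408 peaks, and for 331 of those (81.1%) it was the nearest promoter. None of the 4 lay in an annotated repeat. The start of a microRNA gene in an annotation can differ from the start of its primary transcript, and these distances refer to the annotated start alone.

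The scores of the microRNA peaks ranged from 212.7 to 684.8 with a median of 513, against a range of 50.0 to 2952.3 and a median of 133 over the other 525 peaks. All 4 belonged to the 265 higher-scoring peaks, as did 261 (49.7%) of the other 525. None was among the 33 highest. On their own chromosomes the ranks by score were 6 of 106 for MIR172D, 11 of 90 for MIR319A, 25 of 119 for MIR169C and 47 of 119 for MIR866A. Chromosomes 1 and 2 held none of the 4 peaks.

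**Figure D2:**
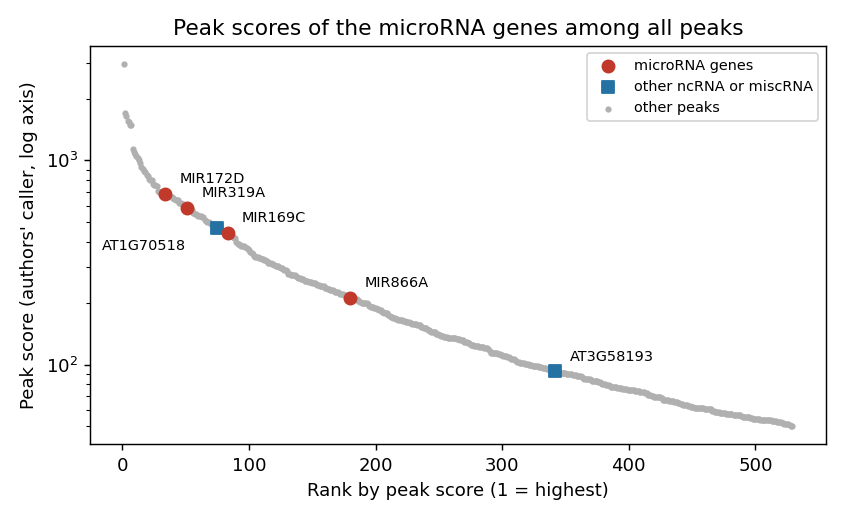
Peak score (log axis, the value given by the authors' caller) against rank by score for all 529 peaks, with rank 1 the highest. Red circles are the 4 microRNA genes at ranks 34, 51, 83 and 180, blue squares are the other 2 loci of Gene Type ncRNA or miscRNA at ranks 75 and 342, and grey points are all other peaks.

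In width the peaks differed less from the list as a whole. They were 1070 bp wide at MIR172D, 1194 bp at MIR319A, 1742 bp at MIR169C and 1044 bp at MIR866A, with a median of 1132 bp, against 1168 bp over the other 525 peaks. The MIR169C peak stood out among the 4 as the widest, at rank 110 of 529 from the widest down. The 50 peaks closest to it in score rank had a median width of 1221 bp. The MIR172D, MIR319A and MIR866A peaks were narrower than the median of their own 50 neighbours in score, which were 1340.5, 1353 and 1162 bp.

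**Figure D3:**
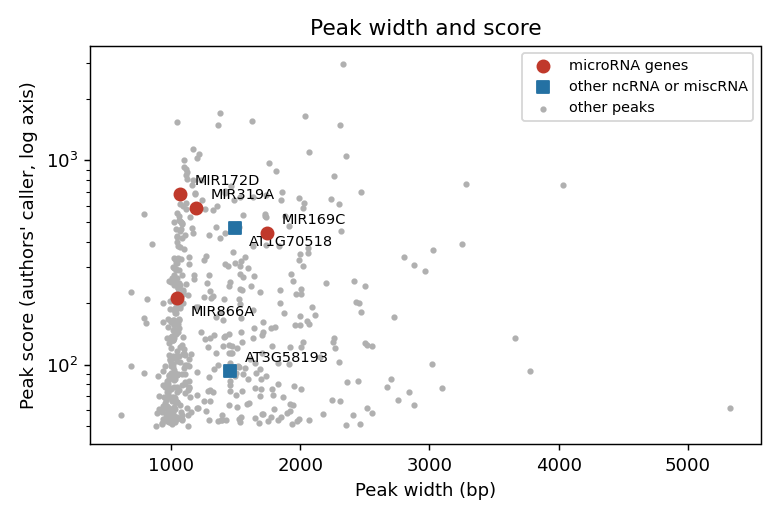
Peak width in bp against peak score (log axis) for all 529 peaks. The microRNA genes (red circles) span 1044 to 1742 bp, the other 2 loci of Gene Type ncRNA or miscRNA (blue squares) are 1494 and 1458 bp wide, and grey points are all other peaks.

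The authors' table labels the gene type of each nearest promoter, and only 6 of 529 peaks (1.13%, 95% Wilson interval 0.521 to 2.45, counting error only) were next to a gene of type ncRNA or miscRNA. The 4 microRNA genes made up most of this group, with MIR172D and MIR319A labelled ncRNA and MIR169C and MIR866A labelled miscRNA. The remaining 2 loci, both labelled ncRNA, were AT1G70518 and AT3G58193, the second of which carries a small nucleolar RNA alias. The AT1G70518 peak had a score of 464.6 (rank 75) and was 1494 bp wide. It was centred 2229 bp upstream of that locus, inside intron 3 of AT1G70510, which is the homeobox gene KNAT2. The AT3G58193 peak had a score of 92.7 (rank 342), was 1458 bp wide, and was intergenic, centred 2232 bp upstream. In score the 2 other loci overlapped the microRNA genes, since AT1G70518 ranked between MIR319A and MIR169C. In distance they did not: the 4 microRNA peaks were centred 562 to 1157 bp from the TSS, and the other 2 were centred 2229 and 2232 bp away. Among all 529 peaks, counted from the closest to a TSS, MIR866A stood at rank 321 and the other 2 at ranks 436 and 437. MIR319A, MIR169C and MIR172D stood at ranks 212, 216 and 222. Most peaks of the list were thus as close as MIR866A, but not as close as MIR319A, MIR169C or MIR172D. For neither AT1G70518 nor AT3G58193 did the annotation place the peak at the locus named as nearest. With 4 and 2 loci this was not tested. Peaks nearest to a tRNA gene numbered 6, with scores of 52.7 to 170, and 3 of these were among the 265 higher-scoring peaks. All 6 scored below the lowest microRNA score, but that score stood at rank 180 of 529, so most peaks of the list did too. The 8 peaks nearest to a pseudogene scored 57.0 to 365.

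The microRNA genes were set beside all genes of a gene table. A RefSeq gene table lists 326 microRNA genes on the nuclear chromosomes, and the 4 genes were the only ones among them named as nearest promoter (1.23%, 95% Wilson interval 0.478 to 3.11). Among all 37899 nuclear genes of the table, 499 were so named, which is 1.32%. Among the 27444 protein-coding genes the number was 479 (1.75%, interval 1.60 to 1.91). The interval of the microRNA share includes the shares of all genes and of protein-coding genes, and with 4 genes, picked for having a peak, it is too wide to show whether microRNA genes differ from them. How many of the 326 were in the authors' annotation set is not known here, and genes missing from it could not have been named. The same holds for the other genes of the table: of its 3480 lncRNA genes 0 were named.

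The annotated locus adds 1 microRNA gene to the nearest promoters. A peak on chromosome 2 from 1039328 to 1040634 (TAIR10) was annotated in the promoter of MIR398A (AT2G03445), a gene for a microRNA that represses copper superoxide dismutase genes. Its nearest promoter, 137 bp upstream of the peak centre, was that of the protein-coding gene NRP1 (AT2G03440). With a score of 210.9 it ranked 181, directly below the MIR866A peak. By annotated locus 4 microRNA genes had a peak (MIR172D, MIR319A, MIR169C and MIR398A), beside 1.04% of all genes and 1.37% of protein-coding genes. By either rule 5 of the 326 did (1.53%), beside 1.5% of all genes and 1.98% of protein-coding genes. Counting only the 265 higher-scoring peaks left all 4 nearest genes among the 326 (1.23%), beside 0.668% of all genes and 0.878% of protein-coding genes. Nothing is read from this, since those scores were known when the genes were picked.

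In each of the MIR172, MIR319 and MIR169 families, which were picked because they hold a gene with a peak, a single copy had one. The table holds 49 microRNA families of more than 1 gene, and these 3 were the ones with a peak by nearest promoter. MIR172D was the 1 of 5 MIR172 genes, and MIR172A, MIR172B, MIR172C and MIR172E had none. MIR319A was the 1 of 3 MIR319 genes, and MIR319B and MIR319C had none. MIR169C was the 1 of 14 MIR169 genes, 6 of which (MIR169I to MIR169N) stand side by side on chromosome 3 with no protein-coding gene between them, and MIR866A is the only gene of its name in the table. The total of 4 in 23 genes follows from how the families were picked and carries no weight beside the 1.32% of all genes. When a peak at the protein-coding gene on either side was counted as well, which gives 4.43% of all genes, the number stayed at 4 of 23.

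None of 25 genes listed as targets of miR172, miR319 or miR169 was next to a peak, and no targets were listed for miR866. For miR172 the list held AP2, TOE1, TOE2, TOE3, SMZ and SNZ, all AP2-type repressors of flowering or regulators of floral organs, and 0 of 6 had a peak. For miR319 it held TCP2, TCP3, TCP4, TCP10 and TCP24 and the MYB genes MYB33, MYB65, MYB81, MYB97, MYB101, MYB104 and MYB120, which are mainly repressed by the related miR159, and 0 of 12 had one. For miR169 it held 7 NF-YA genes, NFYA1, NFYA2, NFYA3, NFYA5, NFYA8, NFYA9 and NFYA10, and 0 of 7 had one. In all 0 of 25 were named as nearest promoter, beside 1.32% of all genes and 1.75% of protein-coding genes. A count of 0 in 25 allows a share of up to 12%. The annotated locus gave 0 of 25 as well, as did the protein-coding neighbours on either side, beside 4.43% of all genes. That limit lies above the background, so the count does not set these targets apart from other genes.

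The protein-coding genes adjacent to the 4 microRNA genes were looked up by gene order. By that order MIR172D lies between AT3G55513 and RTFL7 (AT3G55515), a member of the DEVIL family of small proteins. MIR319A lies between VAG2 (AT4G23710), a subunit of the vacuolar ATPase, and AT4G23720. MIR169C lies between AT5G39630 and AT5G39640, and MIR866A between AT5G40382 and the raffinose synthase gene SIP1 (AT5G40390). Of these 8 neighbours, 0 were the nearest promoter and 0 the annotated locus of any peak, and a count of 0 in 8 is compatible with shares as high as 37.5%. By either rule 543 of the 27444 protein-coding genes (1.98%) had a peak. The members were picked because their own peak named them, and not a neighbour, as nearest promoter. That choice lowers the count for the neighbours, so the count does not set them apart from other genes. Of the 24 protein-coding genes up to the third on either side, 1 had a peak by either rule, the receptor-like kinase gene AT4G23740 near MIR319A, and nothing is read from 1 gene. REBELOTE (RBL, AT3G55510), the second gene before MIR172D, which acts in the arrest of the floral meristem, had none; it is named here after its values were seen.

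Other peaks were near 2 of the 4 microRNA genes and absent around the other 2. At MIR172D the next peak was centred 18.0 kb away in the promoter of AGF2 (AT3G55560), an AT-hook protein gene of gibberellin feedback, with a score of 671.1 (rank 36), close to the 684.8 of MIR172D. At MIR319A 3 further peaks were centred within 50 kb, all on the side of higher coordinates. They were assigned to AT4G23740 (18.4 kb away, score 597.8), the cytokinin response factor gene CRF2 (20.9 kb, 243.9) and AT4G23760 (28.1 kb, 706.7), and all of them were intergenic. Of all 529 peaks, 35 (6.62%) had 3 or more others within 50 kb and 260 (49.1%) had at least 1. The peaks at MIR169C and MIR866A had none within 50 kb. Their nearest peaks were centred 287.5 and 178.7 kb away, beyond the upper quartile of 119 kb over all peaks, whose median was 51.9 kb. The nearest peak to that of MIR169C was the one at MIR866A, so these 2 microRNA genes were next to each other in the list along chromosome 5.

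**Figure D4:**
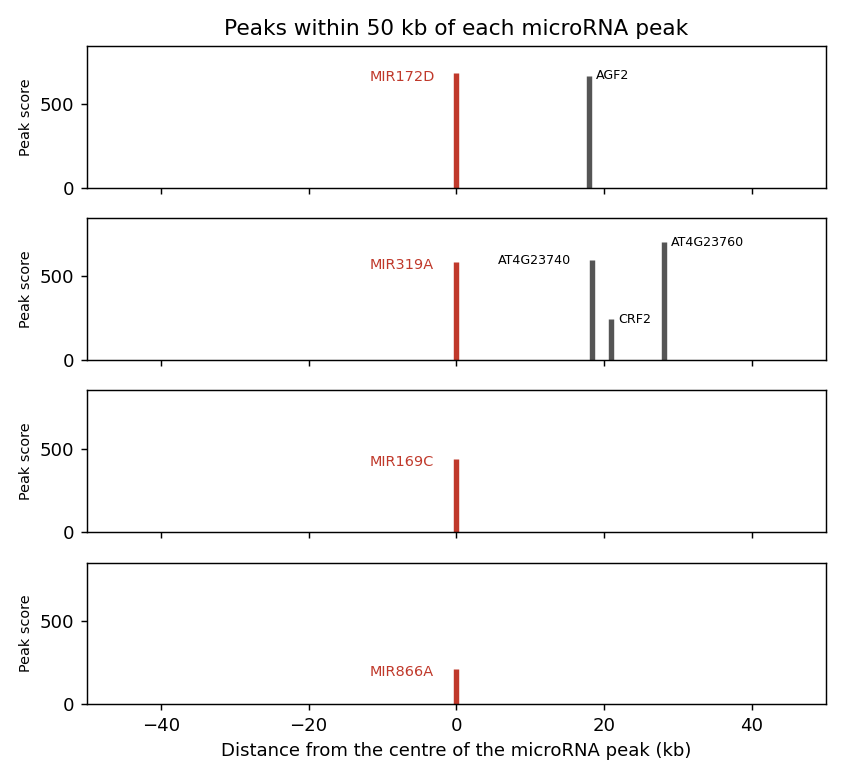
Peaks within 50 kb of each microRNA peak, 1 panel per gene. The horizontal axis is the distance in kb from the centre of the microRNA peak (red), the vertical axis is the peak score, and dark bars are other peaks with the name of their nearest gene. MIR172D has 1 such neighbour, MIR319A has 3, all on the same side, and MIR169C and MIR866A have none.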

How the data were processed

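The deposited file is 1 list of peaks whose header names LFYGR2 against a contrast that it does not identify. The precipitated library is titled LFYGR, so the names differ; the list was taken as that of the LFY serum, and whether it comes from this library alone is not stated. Per the file headers, peaks were annotated with HOMER annotatePeaks.pl and the set tair10. The submitters' processing notes name MACS 1.4, FastQC, HOMER and build TAIR10. Not given in the sources used here are the aligner, the calling threshold, the handling of duplicates and any pooling. The deposited unit is a peak score whose scale no header states, so its values were used only to describe and rank peaks within the list. Positions and distances in bp are the authors' own. The authors' distances were checked to run from the peak centre, since they matched centre positions within 1 bp for all 16 promoters named by 2 peaks.

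Member peaks were rows whose nearest promoter, without its transcript suffix, was 1 of the 4 loci. The members, gene lists and comparisons were chosen with earlier results of these data known. No test was run, because there is 1 library per kind and the members were picked from the list. Named genes follow a rule: the members, their annotated loci and adjacent protein-coding genes, listed family and target genes with a peak, and the highest-scoring other ncRNA or miscRNA peaks; family and target genes without a peak, RBL, genes of other nearby peaks, MIR398A and NRP1 were added after their values were seen. Gene order, symbols and classes came from a RefSeq table of TAIR10.1, which held 499 of the 512 loci and all 48 list genes; its coordinates were not used. Sequences were not analysed here. Shares have 95% Wilson intervals; for a count of 0 the upper limit is 3 counts of the total. Reading of the list was tested on simulated data. Python 3.11.15, pandas 2.3.3, NumPy 2.4.6, SciPy 1.17.1 and matplotlib 3.10.9 were used.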

Additional observations from a re-analysis of the deposited data

How the results depend on the processing

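As a percentage of peaks counted from the highest score down, the microRNA peaks stood at 6.43% for MIR172D, 9.64% for MIR319A, 15.7% for MIR169C and 34.0% for MIR866A. Ranked among the 476 peaks within 3 kb of a TSS they stood at 6.51%, 9.24%, 15.1% and 33.8% in the same order. Those 476 are most of the same list, so this ranking could hardly differ and says nothing of the precision of a rank. Ranked among the 6 ncRNA or miscRNA peaks they stood at 16.7%, 33.3%, 66.7% and 83.3% in the same order, since a group of 6 has coarse steps. Ranked among peaks on their own side of the median width they stood at 3.76% (MIR172D), 13.7% (MIR319A), 19.8% (MIR169C) and 29.3% (MIR866A), and the cause was not tested. The share of ncRNA or miscRNA peaks was 1.00 to 1.89% under the alternatives tried, and the counts of family, target and microRNA genes with a peak stayed within 1.5 times the reported ones. Counting the microRNA genes of the table by other rules, and the neighbours of target genes, were alternatives added after the data were seen. The planned count of LFY core motifs was not run, because no genome sequence was used here. No paired analysis was possible because each kind of library has 1 sample and the list holds no values per library. Without read counts, the precision of a single score is unknown.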

Other observations

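Families of microRNAs that act elsewhere in shoot and flower development were looked up after the data were seen. Of the MIR156 and MIR157 genes, which repress SPL genes of phase change, 0 of 10 and 0 of 4 were nearest to a peak. The same held for 0 of 3 MIR164 genes, which repress CUC boundary genes, for 0 of 2 MIR165 and 0 of 7 MIR166 genes, which repress HD-ZIP III genes of organ polarity, and for 0 of 2 MIR396 genes, which repress growth-regulating factor genes. With the MIR159, MIR160, MIR167, MIR390 and MIR393 genes the count was 0 of 42, beside 1.32% of all genes. The outcome was fixed in advance, since the 4 members were the only ones of 326 microRNA genes named as nearest promoter. None of the 42 was the annotated locus of a peak either, which follows in the same way from the 4 microRNA genes named by that rule. Nothing is read from these counts.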
